A study of Mus musculus with 2 samples.

Results

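The data describe 10 receptor genes for dopamine and serotonin in the embryonic mouse central nervous system: Drd1, Drd2, Drd4, Htr1a, Htr1b, Htr2a, Htr2c, Htr3a, Htr6 and Htr7. They were taken by symbol from gene tables that hold 43346 genes, and all 10 were found. The tables hold 19 dopamine and serotonin receptor genes, so 9 others served for comparison. RNA came from C57BL/6J embryos at embryonic day 18. Both libraries were made from littermates of mixed sex, and polyadenylated RNA longer than 200 nt was read as stranded pairs of 101 nt. There was 1 group of 2 libraries, with no treatment, mutant or other age, so levels could be described but conditions could not be compared. The labels number them as biological replicates 1 and 2 and do not give the number of embryos or the regions dissected. Values are TPM, a share of all transcripts that corrects for transcript length, and ± gives the SD over n = 2 libraries.

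Dopamine and serotonin act mainly through receptors that span the membrane and switch on G proteins. The D1-like receptors raise cyclic AMP and the D2-like receptors lower it. Among serotonin receptors, Htr1 members lower cyclic AMP, Htr2 members activate phospholipase C, Htr6 and Htr7 raise cyclic AMP, and Htr3 members form an ion channel. In the brain Drd1 and Drd2 are best known from separate projection neurons of the striatum, Htr2c from the choroid plexus as well as neurons, and Htr3a from interneurons born in the caudal ganglionic eminence and from sensory neurons.

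Several of these genes make more than 1 protein by splicing, and the 5 segments below are among the 7 whose use was measured by junction reads. The first adds 29 codons to the long form of the D2 receptor, in the loop that contacts G proteins. Those of 6 and 15 codons belong to the channel subunit Htr3a. That of 95 nt keeps the Htr2c reading frame open and holds the stretch that ADAR enzymes edit. The last, of 5 nt, brings a stop codon into Htr7. Capitals mark the segment and lower case the 15 bases of the transcript on each side, read 5′ to 3′ from GENCODE M21 transcripts on GRCm38.
Drd2-201 exon 6 of 8, chr9:49403194-49403280, plus strand: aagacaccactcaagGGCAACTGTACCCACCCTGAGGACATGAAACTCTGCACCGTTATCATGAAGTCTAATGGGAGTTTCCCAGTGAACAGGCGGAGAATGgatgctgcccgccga
Htr3a-201 start of exon 9 of 9, chr9:48899991-48900008, minus strand: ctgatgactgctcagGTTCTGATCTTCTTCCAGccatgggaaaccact
Htr3a-201 exon 3 of 9, chr9:48907354-48907398, minus strand: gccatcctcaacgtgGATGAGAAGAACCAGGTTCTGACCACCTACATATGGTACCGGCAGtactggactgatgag
Htr2c-201 end of exon 5 of 6, chrX:147169676-147169770, plus strand: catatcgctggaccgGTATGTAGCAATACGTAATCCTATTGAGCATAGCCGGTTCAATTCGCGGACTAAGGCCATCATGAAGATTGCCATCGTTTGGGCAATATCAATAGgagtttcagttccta
Htr7-205 end of exon 2 of 3, chr19:35969304-35969308, minus strand: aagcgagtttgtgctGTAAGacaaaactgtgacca

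The gene tables assigned 93979836 and 137012773 fragments to genes in replicates 1 and 2. Both libraries read as young nervous tissue, with all 6 young neuron genes detected and Tubb3, a neuronal tubulin, at 2731 and 2430 TPM. Genes of other tissue were read in both libraries, and some of their lists summed higher in replicate 2. The source of this RNA was not tested. The 8 skeletal muscle genes summed to 13.97 TPM in replicate 1 and 595 in replicate 2, led by Acta1 (10.2 and 167) and Mylpf (1.40 and 166). The 7 genes of meninges and fibroblasts summed to 600.1 and 1019 TPM, with Ptgds and Col1a2 highest by mean. Of these 7, Dcn (52.2 and 40.1) and Foxc1 (3.90 and 3.28) were lower in replicate 2, and the other 5 were higher. The 11 genes of sensory ganglia summed to 30.5 and 93.7 TPM. All 6 glial genes were detected and summed to 156 and 176 TPM, with Slc1a3 and Olig2 highest by mean. The 10 pituitary genes summed to 8.59 and 9.14 TPM with the growth hormone and prolactin genes Gh and Prl listed at 0 in both libraries, and the 8 genes of retina and pineal to 3.35 and 4.07 TPM.

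A gene is called detected here if each library reads at least 1 TPM, and 9 of the 10 receptor genes were. Of all genes measured, 34.2% were detected, and of protein-coding genes 62.9%. The 10 were chosen with earlier results of these data known. Of the 9 other receptor genes 3 were detected. Of all 19 receptor genes 12 were, so the family as a whole was near the protein-coding share. The median of the 10 genes was 4.88 TPM in replicate 1 and 3.99 in replicate 2, against 10.6 and 10.7 for all 18677 genes with enough reads for a ratio. Drd2 was the highest at 12.2 ± 3.76 TPM and Drd4 the lowest at 0.965 ± 0.163. Even Drd2 stood above no more than 40.5% of the 14816 detected genes, and Htr2a above 14.2%. These are whole-tissue averages, in which fewer cells with a receptor and less RNA per cell cannot be told apart.

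Drd2, the main D2-like receptor and the autoreceptor of dopamine neurons, is ENSMUSG00000032259 on the plus strand of GRCm38 chromosome 9 (49340627 to 49408177). It read 14.9 TPM in replicate 1 and 9.54 in replicate 2, from 1195 and 1163 fragments. Replicate 1 was the higher, and even its lower counting bound of 14.03 lay above the upper bound of 10.1 in replicate 2. These bounds are exact Poisson intervals at 95% and cover counting error only. Drd4, the other D2-like member, lies on chromosome 7 (141292006 to 141296464, plus strand) and is known from retina and frontal cortex. It read 1.08 and 0.85 TPM from 73 and 87 fragments, on either side of the threshold, and its counting intervals overlapped (0.847 to 1.36 and 0.681 to 1.05). None of the 8 retina and pineal genes was detected in both libraries, with Aanat at 0.82 and 0.69 TPM, Rcvrn at 0.70 and 0.72, and Asmt at 0.00 and 0.06. Drd3, also D2-like, read 0.19 and 0.10 TPM from 14 and 11 fragments.

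Drd1, the main D1-like receptor, lies on chromosome 13 (54051183 to 54055705, minus strand). It read 5.41 and 3.77 TPM from 1074 and 1131 fragments, again with replicate 1 the higher and with intervals that did not overlap (5.09 to 5.74 and 3.55 to 3.996). The other D1-like gene, Drd5, read 0.58 and 0.79 TPM. Drd2 stood above Drd1 in each library, so the main D2-like receptor was the more abundant of the pair per transcript length.

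Among the serotonin receptors that lower cyclic AMP, Htr1b, an axonal receptor on chromosome 9 (81628291 to 81633828, minus strand), read 5.81 and 5.29 TPM. Htr1a, the autoreceptor of raphe neurons and a receptor of cortex and hippocampus on chromosome 13 (105443639 to 105448122, plus strand), read 3.97 and 4.05. The Htr1a libraries differed by less than their counting intervals (3.73 to 4.22 and 3.85 to 4.26). The remaining Htr1 and Htr5 genes read 2.29 and 1.37 TPM for Htr1d, 3.27 and 3.39 for Htr5a, 1.18 and 1.20 for Htr5b, and 0.45 and 0.29 for Htr1f. Of these 6 genes, Htr1f alone was under the threshold in both libraries. Htr1b overlaps an antisense gene, D430036J16Rik, which read 4.94 and 5.13 TPM. The libraries were stranded per the labels, while the strand setting of the counting is not given in the sources used here.

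Htr2c lies on chromosome X (146962513 to 147197277, plus strand). It read 5.67 and 7.34 TPM from 1522 and 2941 fragments, so replicate 2 was the higher and the intervals were apart (5.39 to 5.96 and 7.08 to 7.61). Htr2a, the cortical receptor on which serotonergic hallucinogens act, lies on chromosome 14 (74640840 to 74709494, plus strand) and read 3.35 and 3.04 TPM with overlapping intervals. Htr2b, known from heart and gut, read 0.05 and 0.03 TPM from 1 and 5 fragments.

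Htr3a, the subunit that every serotonin-gated channel needs, lies on chromosome 9 (48899213 to 48911099, minus strand). It read 4.34 and 3.92 TPM from 487 and 666 fragments, with overlapping intervals (3.96 to 4.74 and 3.63 to 4.23). Its partner subunit Htr3b, known in rodents from peripheral ganglia, read 0.04 and 0.40 TPM from 5 and 80 fragments. Htr3a was therefore the more abundant subunit in each library.

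Of the receptors that raise cyclic AMP, Htr7 was the highest. It lies on chromosome 19 (35958734 to 36057507, minus strand) and read 6.48 and 8.49 TPM from 1072 and 1997 fragments, higher in replicate 2 with intervals apart (6.10 to 6.88 and 8.12 to 8.87). Htr6, a receptor of striatum and of neuronal cilia on chromosome 4 (139061108 to 139075570, minus strand), read 3.59 and 3.01 TPM with overlapping intervals. Htr4, of the same class, read 0.95 and 1.09 TPM.

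**Figure D1:**
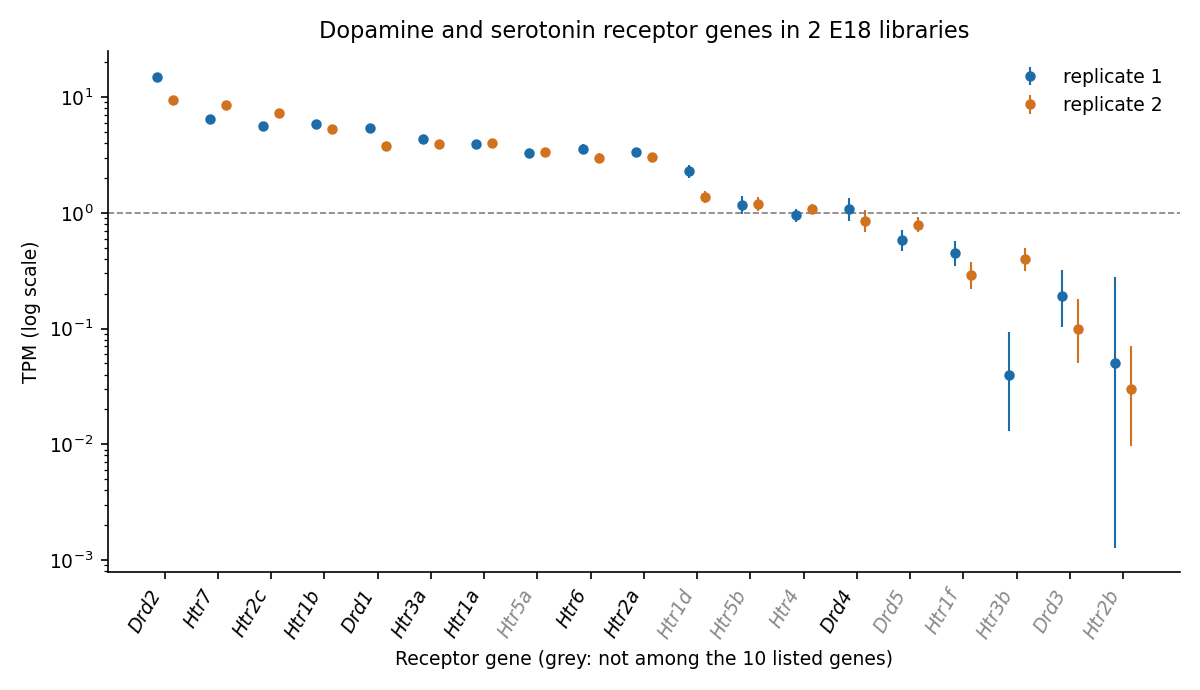
TPM of the 19 dopamine and serotonin receptor genes (log axis) in replicate 1 (blue) and replicate 2 (orange), ordered by mean; bars are exact Poisson intervals at 95% and the dashed line is a TPM of 1. Drd2 is the highest of the 19 at 14.9 and 9.54 TPM, and Htr3b, Drd3 and Htr2b lie furthest below the line.

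The order from high to low by mean TPM was Drd2, Htr7, Htr2c, Htr1b, Drd1, Htr3a, Htr1a, Htr6, Htr2a and Drd4. The values of neighbours were apart in 3 of 9 pairs: Drd2 above Htr7, Htr1a above Htr6, and Htr2a above Drd4. In the other 6 pairs the libraries of neighbours overlapped, so the middle of the order was not resolved. Drd2 was first and Drd4 last in each library. The order depended on correcting for length: by CPM, which scales fragments to the library without that correction, Htr2c came first (16.2 and 21.5) and Drd2 at rank 5 (12.7 and 8.49). The Drd2 model used for the gene table is 1549 nt long, against 2547 nt in the later annotation GENCODE M21. For Htr2a these lengths are 2971 and 5606 nt, and for Drd4 1334 and 2799 nt. The authors' gene values on the older mm9 build, which the files call RPKM, come in 2 replicate columns not tied to a library. Drd2 (1.24 and 1.01) and Htr7 (0.919 and 1.28) again had the highest means, and Drd4 (0.0609 and 0.0564) was last. Drd2 was above Htr7 in column 1 and below it in column 2, so this pair was not apart there (means 1.13 and 1.10).

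None of the 10 genes differed by 2-fold or more between the libraries in either direction, where 3.58% of 18677 genes did (2.64% higher in replicate 2 and 0.937% lower). At 1.5-fold 1 of 10 did, Drd2, against 9.04% of all genes, a share close to the background. Scaled by total counts 0 of 10 did, with Drd2 at a log2 ratio of -0.58, just short of 1.5-fold. The ratio is that of counts scaled by TMM, a factor that sets most genes equal, and with 1 group it has no test. Over all tested genes edgeR gave a common coefficient of variation of 19.1% between the libraries. On this scale Drd2 was 1.55 times higher in replicate 1 (log2 ratio of replicate 2 over replicate 1 of -0.63, counting interval -0.75 to -0.51), and Drd1 1.43 times higher (-0.52, -0.64 to -0.40). Htr2c was 1.28 times higher in replicate 2 (log2 0.36, 0.27 to 0.45) and Htr7 1.24 times (0.30, 0.20 to 0.41). Htr6 was 1.19 times higher in replicate 1 (-0.25, -0.45 to -0.06). For the other 5 genes the counting interval held a log2 ratio of 0. In all 7 of the 10 were lower in replicate 2, where 49.5% of all genes were. Scaled by total counts 6 of 10 were lower, against 37.4% of all genes, and Htr1b changed sign, from -0.01 to 0.04. The Drd2 difference also depended on the source. In the mm9 gene values as deposited, column 2 over column 1 was 0.82 for Drd2 and 0.72 for Drd1. By TMM-scaled counts, replicate 2 over replicate 1 was 0.65 and 0.70.

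**Figure D2:**
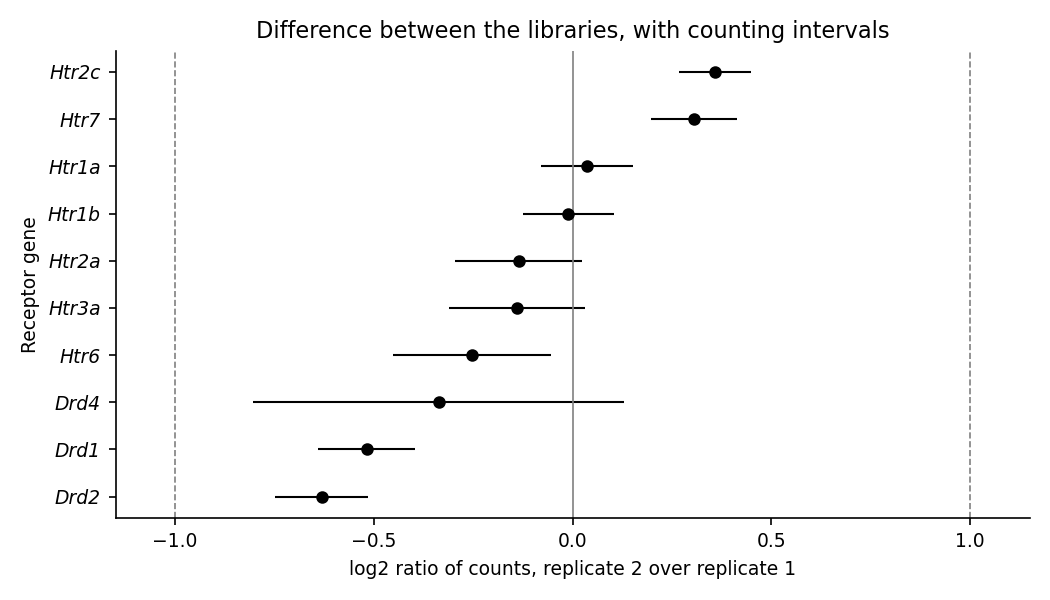
log2 ratio of counts, replicate 2 over replicate 1, for the 10 receptor genes; bars are exact binomial counting intervals at 95%, and dashed lines mark 2-fold. Drd2 at -0.63 and Drd1 at -0.52 lie lowest, Htr2c at 0.36 and Htr7 at 0.30 highest, and none reaches 2-fold.

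Genes of the striatum differed in the direction of Drd1 and Drd2. All 6 genes listed for the D2 pathway were lower in replicate 2 (median log2 ratio -0.64), and 4 of them by 1.5-fold or more, where 2.73% of all genes were. Adora2a, the adenosine receptor of these neurons, read 15.02 and 9.61 TPM. The transcription factor gene Six3 read 14.8 and 9.06. The opioid peptide gene Penk was the highest of the list at 40.1 and 35.2 TPM and was 1.07 times higher in replicate 1, while Drd2 was 1.55 times higher. The 12 genes of striatal projection neurons were likewise lower in replicate 2 (median -0.53), where 49.5% of all genes were. Scaled by total counts 11 of 12 were lower, against 37.4% of all genes. By 1.5-fold or more 4 of 12 were lower, while by counts Foxp2 (log2 ratio -0.01), Rasd2 (-0.05) and Rgs9 (-0.07) differed least. In TPM Foxp2 differed by more, at 28.91 and 24.45. Among the 12, Meis2 read 154 and 110 TPM, Foxp1 84.8 and 59.3, and Bcl11b 69.6 and 39.6. Ppp1r1b, which encodes the dopamine-regulated phosphatase inhibitor DARPP-32, read 46.4 and 27.9 TPM. In the D1 pathway list 5 of 6 were lower, by less (median -0.10), with the peptide gene Tac1 at 72.2 and 64.7 TPM and Sfxn1 at 50.1 and 47.6. The part of these genes' cells in the difference of Drd1 and Drd2 was not tested. Midbrain dopamine neurons, which also use Drd2, gave a median of -0.24 over 8 genes, of which 6 were lower in replicate 2 and 2, Slc6a3 and Lmx1b, higher, with Nr4a2 at 12.9 and 10.8 TPM and Pitx3 at 0.51 and 0.37. Lactotrophs of the pituitary are another known site of Drd2. Their hormone gene Prl was listed at 0 in both libraries, and Pomc, a precursor of pituitary peptides, read 2.91 and 2.67 TPM.

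The thalamus and choroid plexus lists lay on the side of Htr7 and Htr2c, but were not alone there. Median log2 ratios were 6.42 for skeletal muscle, 2.03 for sensory ganglia, 0.83 for meninges and fibroblasts and 0.19 for glia. Of these, 2 of 7 meningeal and fibroblast genes and 1 of 6 glial genes were lower in replicate 2. All 7 thalamus genes were higher in replicate 2 (median log2 0.53), where 50.5% of all genes were, with the transcription factor gene Tcf7l2 at 73.1 and 106 TPM and the glutamate transporter gene Slc17a6 at 29.2 and 30.9. Prox1, among the 7, also stands in the list of caudal ganglionic interneurons. Of the 10 choroid plexus genes, 9 were higher in replicate 2 (median 0.70), and 5 by 1.5-fold or more, where 6.31% of all genes were. Ttr, which encodes the thyroid hormone carrier made by the choroid plexus, read 427 and 1389 TPM, a 3.28-fold difference against 1.28-fold for Htr2c. Enpp2 read 22.1 and 28.6 TPM, and F5, the lowest of the list, 0.12 and 0.16. The part of any of these tissues in the difference of the receptors was not tested.

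All 11 genes of sensory ganglia were higher in replicate 2 (median log2 2.03), including the intermediate filament gene Prph at 5.56 and 42.5 TPM, the sodium channel gene Scn9a at 10.7 and 12.3 and the ATP receptor gene P2rx3 at 0.96 and 5.64. Htr3b, with 5 and 80 fragments, was higher in the same library, while Htr3a stood at a log2 ratio of -0.14. Genes of caudal ganglionic interneurons gave a median of -0.03, with 4 of 9 higher and 5 lower. In that list Reln, a secreted protein of cortical layering, read 100.4 and 99.7 TPM, Cck 78.6 and 85.8, and Vip, the lowest, 0.37 and 0.62.

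**Figure D3:**
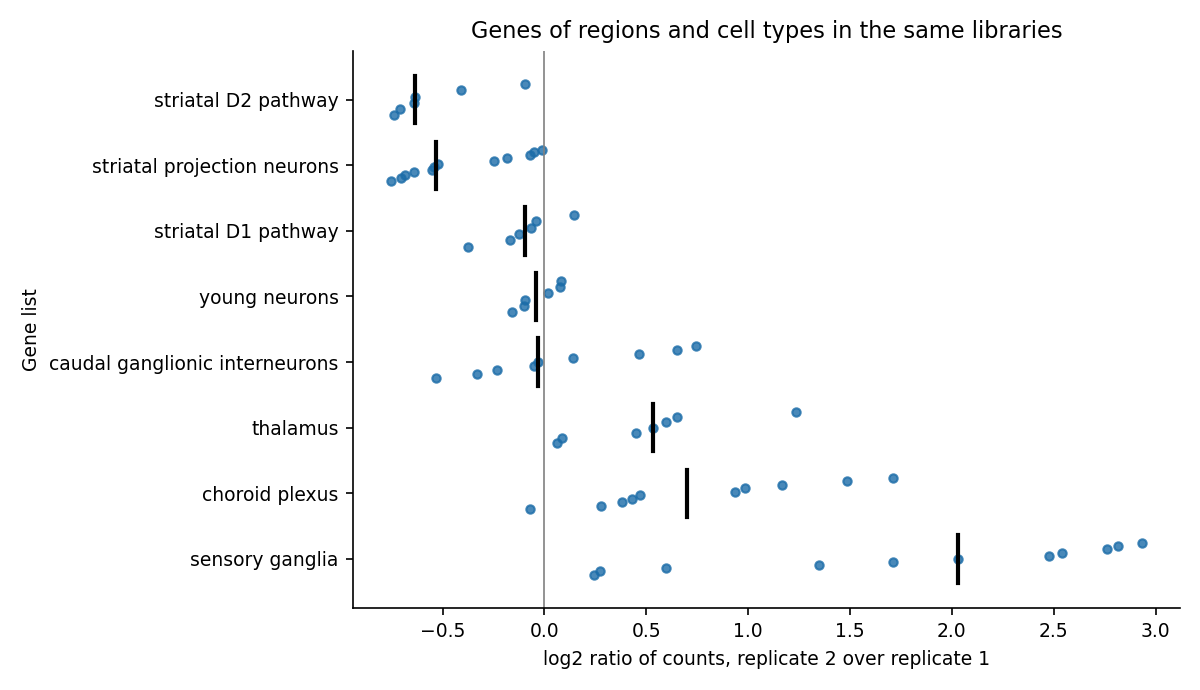
log2 ratio of counts, replicate 2 over replicate 1, for each gene (points) of 8 lists of regions and cell types, with list medians as black bars. The striatal D2 pathway (median -0.64) lies on the side of Drd2 and the thalamus (0.53) and choroid plexus (0.70) on the side of Htr7 and Htr2c, while sensory ganglia reach 2.03. Skeletal muscle, meninges and fibroblasts, and glia also had medians on the side of Htr7 and Htr2c and are not drawn.

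Genes that make, store and recover both amines were detected. All 4 genes of dopamine supply were detected, among them Slc18a2, the vesicle transporter of both amines, at 11.7 and 13.6 TPM, the decarboxylase gene Ddc at 9.62 and 9.95, Th, the rate-limiting enzyme of dopamine synthesis, at 9.96 and 8.20, and the dopamine transporter gene Slc6a3 at 2.80 and 2.90. For serotonin 4 of 5 were detected, with the transporter gene Slc6a4 at 9.80 and 7.81 TPM and Tph2, the neuronal synthesis enzyme, at 2.70 and 2.41. Tph1, the enzyme of pineal and gut, read 0.10 and 0.83 TPM. Of 6 genes of raphe neurons 4 were detected, Gata3 at 4.32 and 4.08 TPM among the highest and Fev the lowest at 0.43 and 0.36. The 4 genes of monoamine breakdown had medians of 47.7 and 44.7 TPM, with Aldh2 at 76.4 and 68.8 TPM and Maoa at 18.9 and 20.7.

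Median RNA levels of the genes whose proteins receptors act on were above those of the receptors. All 9 G protein alpha subunit genes were detected, with a median of 72.2 TPM in replicate 1 and 64.9 in replicate 2. Gnas, the stimulatory subunit, read 1711 and 1651 TPM, and the inhibitory subunits Gnai2 and Gnao1 read 321 and 297 and 269 and 214. Gnal, the stimulatory subunit of striatal dopamine signalling, was named after its values were seen and read 72.2 and 60.5 TPM. All 15 genes of cyclases and effectors were detected (medians 20.4 and 17.4 TPM), with the protein kinase A subunits Prkaca (117 and 115) and Prkar2b (100.4 and 84.7) highest. All 18 receptor partners were detected (medians 46.8 and 41.8). Among them Caly, which binds D1 receptors, read 228 and 206 TPM, S100a10, which binds Htr1b, 130 and 96.0, the receptor kinase Grk2 102 and 91.7, and Adar, an enzyme that edits Htr2c RNA, 66.4 and 64.4. Editing itself was not analysed here.

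Receptor families of other amines were detected in part. Of 9 adrenergic genes 6 were detected, of 5 muscarinic genes 4 and of 4 histamine genes 2, against 2 of 5 dopamine and 10 of 14 serotonin receptor genes. Among all protein-coding genes 62.9% were detected, and families this small cannot be ranked by these counts. The highest pair of genes by mean in each of the 3 families comprised Chrm1 at 12.9 and 8.86 TPM, Adra2a at 9.04 and 8.79, Adra1b at 8.09 and 7.30, Chrm3 at 7.06 and 8.07, Hrh3 at 7.38 and 6.09 and Hrh1 at 2.21 and 2.09. The lowest of each family were Adra2b (0.32 and 0.31), Chrm5 (0.82 and 0.78) and Hrh4 (0.01 and 0.03). By TPM, Drd2 was above each of these in both libraries, which depended on the correction for length. By fragments Drd2 had 1195 and 1163, and Chrm1 (3170 and 3359), Adra2a (1941 and 2857) and Chrm3 (1487 and 2534) had more. Adra1b (949 and 1379) had more than Drd2 in replicate 2 only.

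Splice forms of Drd2 were read from junctions on mm9, which count reads that cross an intron in 2 replicate columns. These columns are not tied to a library and are called columns 1 and 2 here. The junctions into and out of the exon shown above had 108 and 68 reads in column 1 and 111 and 77 in column 2, and the junction that skips it had 14 and 11. The long form therefore made up 86.3% of column 1 (Clopper-Pearson interval at 95% of 78.0 to 92.3) and 89.5% of column 2 (82.0 to 94.7), a mean of 87.9% ± 2.30. For exons, these intervals treat the mean of both inclusion junctions as a read count, so they are approximate. The short form, the main autoreceptor form in adult dopamine neurons, was the minor one at 12.1%. Taking the upstream junction by itself gave 89.8% and the downstream one 85.2%. The authors' transcript values on mm9 put the long form at 79.5% and 75.5%, lower than the junction shares. The mm10 transcript table holds the long form only, so its share there is 100% by construction. At the intron further upstream, between exons 4 and 5, 262 and 177 reads were listed 2 nt upstream of the annotated position and none at it, so a search by annotated positions would miss them.

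Htr3a was read almost entirely without the 6 codons at the start of its last exon. The junction that keeps these 18 nt had 3 and 8 reads in columns 1 and 2, against 78 and 83 for the one that drops them. The form with the segment was 3.70% (0.770 to 10.4) and 8.79% (3.87 to 16.6). Models for the gene tables contain just the form with the segment, of 489 codons, and the shorter form of 483 codons is Htr3a-202 in GENCODE M21. The counts of the gene were therefore assigned to a model that 93.8% of these junction reads did not match. The 45-nt exon was kept by 24 and 33 reads in column 1 and 45 and 49 in column 2 and skipped by 5 and 18. It was included at 85.1% (68.5 to 94.97) and 72.3% (59.8 to 82.7), with overlapping intervals. The skipping junction is not in the Ensembl 65 annotation, and both Htr3a choices were picked after the junction reads were seen.

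Htr2c kept the 95-nt segment in most reads. The junction from the far donor had 56 and 68 reads in columns 1 and 2, and the one from the near donor, which drops the segment, had 12 and 34. The segment was kept at 82.4% (71.2 to 90.5) and 66.7% (56.6 to 75.7), with intervals that overlap. Without it the frame shifts and Htr2c-207 ends after 172 codons in place of 459 in Htr2c-201. The transcript estimates on mm10 gave 76.7% and 64.95% to Htr2c-201 and 20.3% and 30.6% to Htr2c-207 in replicates 1 and 2. Each source had the full-length form as the larger share.

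Htr7 held 5 of the 11 donors and acceptors that the annotation joins to more than 1 partner and that had at least 20 reads. Drd2 held 2 of them and Htr2c 4. At 1 donor of Htr7 and 1 of Htr2c all reads went to a single partner. With junctions outside the annotation, Htr7, Htr2c and Htr3a held 5 each. At the end of exon 2 the junction with the 5 extra nt had 10 and 10 reads, against 30 and 86 without it. The extra bases were kept at 25% (12.7 to 41.2) and 10.4% (5.11 to 18.3). That form ends at the stop codon inside them after 435 codons, while Htr7-202, the form without them, has 448. An alternative exon of 97 nt, which gives a form of 470 codons (Htr7-201), was kept by 1 read at each side in column 1 and 6 in column 2, or 3.23% and 6.52%. These forms differ in the tail of the receptor inside the cell. A 58-nt exon after exon 1, annotated as leading to nonsense-mediated decay, was kept at 28.6% (18.4 to 40.6) and 24.9% (18.2 to 32.6). A junction outside the annotation joined exon 1 to the last exon with 20 and 30 reads, and was singled out after its reads were seen. The transcript table on mm10 assigned 7.91% and 15.8% of Htr7 to Htr7-206, although the internal intron that defines that transcript, 148 nt long, had 0 junction reads, which allows up to 3. Htr7-205 received 29.3% and 11.6% and Htr7-202 35.98% and 39.2%.

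For Drd1 the annotated intron in its 5′ part had 51 and 54 reads, and 12 and 16 reads used another donor outside the annotation, a share of 21.1% of both columns (14.5 to 28.97). The next 3 genes had no annotated choice with enough reads. The 2 annotated introns of Htr2a had 69 and 36 reads in column 1 and 92 and 51 in column 2. The 3 of Htr6 had 50, 26 and 6 reads in column 1 and 65, 33 and 8 in column 2. The 3 of Drd4 had 17, 16 and 8 reads in column 1 and 16, 17 and 4 in column 2. Htr1a and Htr1b have no intron in Ensembl 65, the annotation of the junction positions.

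**Figure D4:**
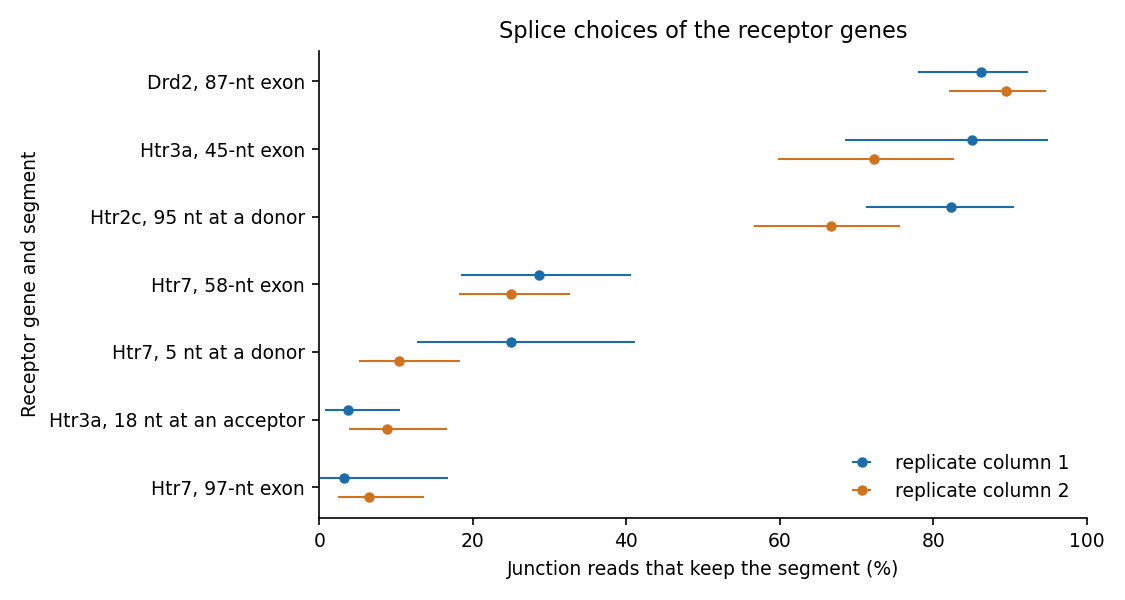
Share of junction reads that keep each segment (%), in replicate columns 1 (blue) and 2 (orange) of the mm9 junction file, with Clopper-Pearson intervals at 95%. The Drd2 exon is kept at 86.3% and 89.5%, and the 18 nt of Htr3a at 3.70% and 8.79%.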

How the data were processed

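The members and the gene lists were chosen with earlier results of these data known. Per-gene and per-transcript expected counts, TPM and FPKM were deposited by the authors on mm10, with GENCODE M4 models per the deposited read-me texts. The program is not given in the sources used here. Entries other than genes (3.62% and 4.01% of counts) were left out. Symbols and positions came from GENCODE M21 (GRCm38). On mm9 the authors deposited gene and transcript values called RPKM and junction read counts per replicate column, which no header ties to a library. No coordinates were moved between builds.

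Rounded counts were scaled by TMM in edgeR 4.0.16 (filterByExpr, prior count 1) and the script for these ratios was checked on simulated counts. DESeq2 1.42.0 size factors were an alternative. Other steps used R 4.3.3, Python 3.11.15, pandas 2.3.3 and SciPy 1.17.1. Detection was a TPM of 1 in both libraries. A share uses the mean of inclusion junctions over that mean plus the skipping count. All 10 receptors are named, as are the other receptors, and of each list the 2 to 4 highest genes, the lowest where under a TPM of 1, and those of a receptor's known tissue. The values of some genes this rule names are not reported here, while counts, sums and medians over lists include them. The Drd2 share from mm9 transcripts, and junctions outside the annotation, were added after the data were seen. A count of 0 allows 3 fragments, or 0.0319 and 0.0219 CPM.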

Additional observations from a re-analysis of the deposited data

How the results depend on the processing

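The median level of the 10 receptors was 4.36 TPM. It was 2.71 in FPKM, 10.2 in CPM and 5.19 TPM after rescaling to nuclear genes, which change the unit or the total, and 3.99 to 4.88 without either replicate. All 10 kept their rank in FPKM, which differs from TPM by a single factor per library and so could hardly change the order. In mm9 RPKM 8 kept their rank, without either replicate 6 to 8, and in CPM 2. Detected genes numbered 9 to 10 under every threshold and library tried. The median log2 ratio of -0.14 lay between -0.14 and -0.09 under 6 other scalings and pseudocounts. For single receptors, 1 of 60 such ratios left its counting interval. This was Htr1b, at -0.133 by TPM with a pseudocount of 0.1, against an interval of -0.126 to 0.105. No receptor passed 2-fold under any of the 3 scalings. At 1.5-fold 1 passed with TMM and 1 with DESeq2 size factors, and 0 with total counts (the last pair of settings was added after the data were seen). The long-form share of Drd2 was 87.9% by junctions, 85.2% by the downstream junction and by the smaller of both, 86.3 to 89.5% without either column, 100% by mm10 transcripts in every unit and library, and 77.5% by mm9 transcripts. Counting junctions outside the annotation raised the 11 competing sites to 19. The median over lists was 9.28 TPM and 5.77 FPKM. The 73 and 87 fragments limit Drd4, and 7 to 163 reads per junction over both columns limit the Htr7 shares. No paired analysis was possible because both libraries belong to 1 group.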
